A study of Mus musculus with 18 samples.

Results

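Glucose sensing, incretin response and beta cell maturity were followed through 8 genes measured in mouse pancreatic islets: Slc2a2, G6pc2, Abcc8, Kcnj11, Glp1r, Gipr, Slc30a8 and Ucn3. They were found by symbol among the probe sets that the platform annotation gives exactly 1 gene, and all 8 were present among the 22180 genes so measured, each through 1 probe set. Islet RNA was hybridised to 18 Affymetrix arrays, in 6 groups of 3, taken at an age of 16 weeks from male and female C57BL/6 mice. The islets were described as having constitutive activity in beta cells of NIK, a kinase of the non-canonical NF-kappaB pathway, through loss of TRAF2 or TRAF3, adaptor proteins that restrain it.

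The TRAF3 knockout (KO) mice carried floxed TRAF3 alleles (TRAF3loxP/loxP) and RIPCre, a Cre recombinase under the rat insulin promoter. In the TRAF2 KO mice RIPCre was combined with TRAF2loxP/loxP. These genotypes follow the sample labels: the text on the whole series writes TRAF2 for both knockouts, and no transcript level reported here checks the TRAF3 label. Controls were floxed littermates, and neither their floxed gene nor their Cre status was stated, so Cre itself and the deletion cannot be told apart. A high-fat diet (HFD, 45% of energy as fat) was fed to 1 set of each genotype for 8 weeks starting at 8 weeks of age, and the other set of each genotype received chow. The labels do not say that each array is a separate animal, so p-values measure the spread between these samples, which may in part be technical. Traf2 transcript did not separate the labels: it was 7.32 ± 0.16 in chow TRAF2 KO and 7.18 ± 0.15 in chow control islets on the log2 scale (SD, n = 3 each), and 7.00 ± 0.13 in HFD TRAF2 KO and 6.82 ± 0.31 in HFD control islets. The probe set's position relative to the floxed part is not known here, so this level does not check the deletion.

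A beta cell measures blood glucose by burning it. Glucose enters through the transporter GLUT2, the ATP made from it closes the KATP channel, and the membrane depolarises so that calcium enters and insulin granules fuse. The gut hormones GLP-1 and GIP strengthen this through receptors that raise cAMP, and a mature beta cell also carries granule proteins and paracrine signals that immature cells hold at low levels.

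Values below are the deposited log2 expression values of a gene's probe set, on which a difference of 1 is a doubling of the estimated signal. They are compared only within a gene, since probe sets differ in brightness. All 8 genes lay above the array's median over all probe sets on all 18 arrays. These medians were 4.80 to 4.96 and the highest values 13.5 to 13.6. Glp1r, at 12.1 to 13.0, lay close to that ceiling, and whether this narrowed its differences was not tested. Over the analysed genes alone the median of chow TRAF3 KO 3 was 5.71, and Gipr lay just above it there, at 5.76. The islet hormone gene Ins2 was at 11.0 to 12.1 and the granule gene Chga at 12.6 to 13.2 on every array. Acinar markers were abundant too: 13 digestive enzyme genes averaged 10.96 to 12.8 per array, so the islets were not free of exocrine RNA.

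The chow TRAF3 KO islets held the lowest mean of all 6 groups for each of the 8 genes. Against chow controls, Slc2a2, Slc30a8, Ucn3, Kcnj11 and Glp1r fell, by between 1.45-fold and 7.82-fold. G6pc2, Abcc8 and Gipr had lower means that did not pass. On HFD none of the 8 genes passed in either knockout, and within TRAF3 KO mice Slc2a2, Ucn3, Slc30a8 and Glp1r were higher on HFD than on chow. The genes differed in how far they moved: the 6 group means of Slc2a2 spanned 3.03 log2 units, a span larger than that of 99.4% of genes, and those of Glp1r spanned 0.59, larger than that of 70.0% of genes.

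**Figure D1:**
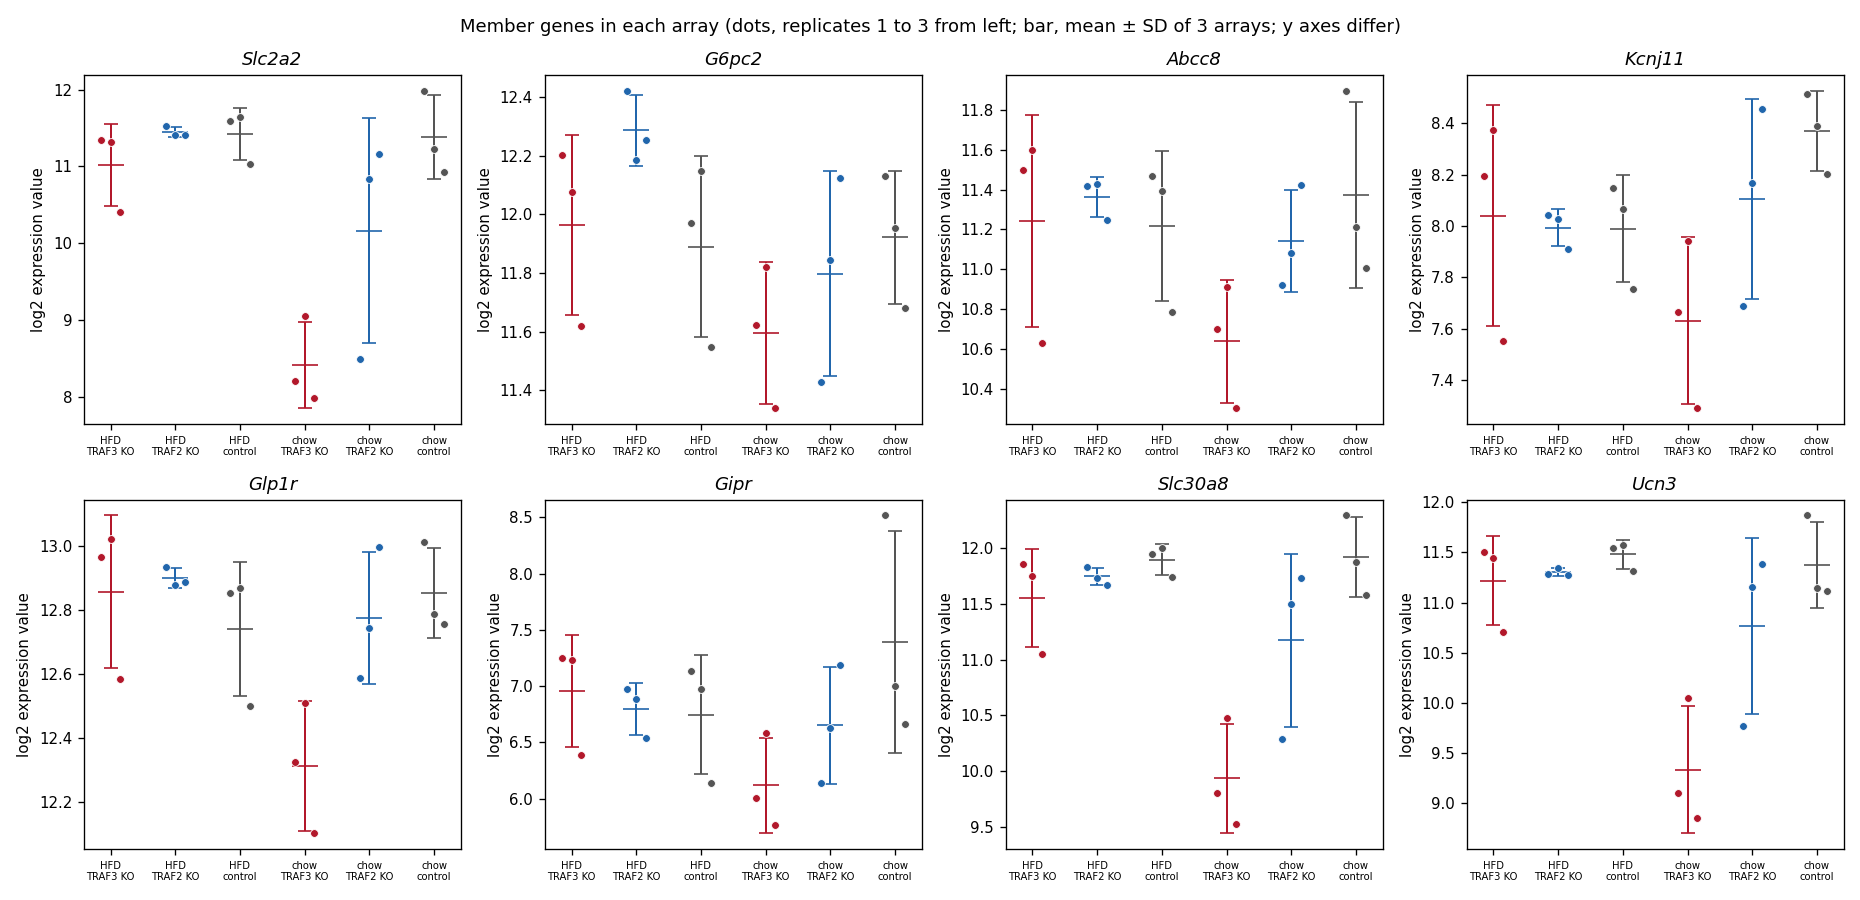
Log2 expression value (vertical axes, which differ between panels) of each of the 8 genes in the 6 genotype and diet groups, with 1 dot per array and a bar for the mean ± SD of 3 arrays. The chow TRAF3 KO dots lie lowest for Slc2a2 (7.99 to 9.05), Slc30a8 (9.52 to 10.48) and Ucn3 (8.85 to 10.05), apart from 1 chow TRAF2 KO array that lies among them for each of the 3 genes.

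Promoter sequence was available for 4 of the 8 genes from RefSeq (GRCm38.p6). The 250 bases before the gene start are shown for Slc2a2 and Ucn3, whose levels in chow TRAF3 KO islets were furthest below control among these 4, and for Glp1r and G6pc2, which differed least. They run 5′ to 3′ on the gene's strand, at chr3:28697653-28697902 (plus strand) for Slc2a2, chr13:3945350-3945599 (minus strand) for Ucn3, chr17:30901617-30901866 (plus strand) for Glp1r and chr2:69210823-69211072 (plus strand) for G6pc2, and capitals mark matches on either strand to CANNTG, the E-box core, or TAAT, the core read by homeodomain proteins such as Pdx1 and Nkx6-1.
Slc2a2: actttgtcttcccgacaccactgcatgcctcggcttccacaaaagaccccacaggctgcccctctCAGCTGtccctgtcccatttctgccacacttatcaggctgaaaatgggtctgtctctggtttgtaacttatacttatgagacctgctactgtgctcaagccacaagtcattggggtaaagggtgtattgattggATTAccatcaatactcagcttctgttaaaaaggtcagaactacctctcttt
Ucn3: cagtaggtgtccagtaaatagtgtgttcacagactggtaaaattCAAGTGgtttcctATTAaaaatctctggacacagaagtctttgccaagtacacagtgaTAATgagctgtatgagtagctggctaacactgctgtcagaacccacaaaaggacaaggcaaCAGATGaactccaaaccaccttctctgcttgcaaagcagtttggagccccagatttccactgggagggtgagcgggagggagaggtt
Glp1r: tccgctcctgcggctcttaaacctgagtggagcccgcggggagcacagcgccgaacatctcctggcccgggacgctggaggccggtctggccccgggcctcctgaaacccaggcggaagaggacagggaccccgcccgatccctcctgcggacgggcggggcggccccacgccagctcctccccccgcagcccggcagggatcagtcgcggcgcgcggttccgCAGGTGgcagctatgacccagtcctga
G6pc2: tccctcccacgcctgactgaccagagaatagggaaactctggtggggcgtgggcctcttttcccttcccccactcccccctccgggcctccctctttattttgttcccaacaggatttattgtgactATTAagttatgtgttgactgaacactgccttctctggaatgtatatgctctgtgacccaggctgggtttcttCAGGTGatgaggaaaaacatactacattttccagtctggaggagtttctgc
CANNTG occurred in 4 of these 4 windows and in 66.1% of 27025 mouse promoter windows of the same length. TAAT occurred in 3 of the 4, not in Glp1r, and in 55.4% of all windows. Neither core therefore separated Slc2a2 and Ucn3 from both Glp1r and G6pc2. The Glp1r window held 73.2% G and C bases, against 47.2% in Slc2a2, 46.4% in Ucn3, 50% in G6pc2 and a median of 52.0%. No match was found in any of the 4 windows to TATAAA (13.0% of windows), GTTAAT of HNF1 (6.54%), TGCTGA of MAF proteins (15.8%) or TTCNNNGAA of STAT proteins (7.14%). The kappaB consensus in its usual degenerate form was in none of the 4 windows and in 3.74% of all windows. A looser form of it, GGG and CC with any 5 bases between them, was found in Glp1r alone, 3 times with 2 of the matches overlapping, and in 45.4% of all windows. A match is a string of letters and not a shown binding site.

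Glucose entry came first. Slc2a2 encodes GLUT2, the high-capacity glucose transporter of mouse beta cells. On chow, Slc2a2 was at 8.20, 9.05 and 7.99 in the 3 TRAF3 KO arrays, at 8.49, 10.84 and 11.16 in TRAF2 KO arrays and at 11.99, 11.23 and 10.93 in controls. Every chow TRAF3 KO array was below every chow control, and 1 chow TRAF2 KO array lay among the TRAF3 KO arrays while the other 2 lay near the controls. On HFD the values were 11.35, 11.32 and 10.41 in TRAF3 KO, 11.52, 11.42 and 11.41 in TRAF2 KO and 11.59, 11.65 and 11.04 in control arrays. Both knockout groups overlapped the controls, and the TRAF3 KO arrays lay just below all TRAF2 KO arrays, with 1 at 10.41 as the lowest. TRAF3 KO differed from control on chow by -2.97 ± 0.52 (limma's moderated SE, here and below), or 7.82-fold lower, with an adjusted p of 0.00313.

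G6pc2 encodes the islet glucose-6-phosphatase catalytic subunit, which turns glucose-6-phosphate back into glucose. Its values on chow were 11.62, 11.82 and 11.34 in TRAF3 KO, 11.43, 11.84 and 12.12 in TRAF2 KO and 12.13, 11.95 and 11.68 in control arrays. The 3 chow groups overlapped. On HFD it was at 12.20, 12.07 and 11.62 in TRAF3 KO, 12.42, 12.19 and 12.25 in TRAF2 KO and 11.97, 12.15 and 11.55 in control arrays, and here the 3 TRAF2 KO arrays lay above all controls. The chow TRAF3 KO difference from control was -0.33, with a 95% interval of -0.77 to 0.12 and an adjusted p of 0.386 by limma, and it was -0.20 without chow TRAF3 KO 3. Of the 8 genes it was the one whose chow TRAF3 KO and control ranges overlapped.

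The KATP channel is built from the sulfonylurea receptor SUR1, encoded by Abcc8, and the pore Kir6.2, encoded by Kcnj11. The genes lie beside each other on mouse chromosome 7, with 1 predicted gene between them in RefSeq (GRCm38.p6). On chow, Abcc8 read 10.70, 10.91 and 10.30 in TRAF3 KO, 10.92, 11.08 and 11.42 in TRAF2 KO and 11.90, 11.21 and 11.01 in control arrays. The TRAF3 KO arrays were below all others on chow, by a narrow margin from the lowest TRAF2 KO array. On HFD, Abcc8 read 11.50, 11.60 and 10.63 in TRAF3 KO, 11.42, 11.43 and 11.25 in TRAF2 KO and 11.47, 11.39 and 10.79 in control arrays, which overlapped. The chow TRAF3 KO difference from control was -0.73 ± 0.28 and did not pass (limma adjusted p = 0.104). It was -0.47 without chow control 1, and it passed at -0.90 with the mean of the acinar markers as a covariate (adjusted p = 0.0108).

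Kcnj11 read 7.66, 7.94 and 7.29 in chow TRAF3 KO, 7.69, 8.17 and 8.46 in chow TRAF2 KO and 8.52, 8.39 and 8.20 in chow control arrays. TRAF3 KO arrays were again all below the controls. Under HFD it read 8.19, 8.38 and 7.55 in TRAF3 KO, 8.04, 8.03 and 7.91 in TRAF2 KO and 8.15, 8.07 and 7.75 in control arrays, with no separation. The chow difference of TRAF3 KO from control was -0.74 ± 0.23, or 1.67-fold lower, with an adjusted p of 0.046 by limma. That call was lost in 12 of the 18 fits that each left out 1 array, with adjusted p up to 0.223. Abcc8 and Kcnj11 thus differed from control by almost the same amount, and Kcnj11 alone passed.

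Both incretin receptors are class B peptide hormone receptors coupled to the stimulatory G protein. Glp1r, the GLP-1 receptor, was at 12.33, 12.51 and 12.10 in chow TRAF3 KO, 12.59, 12.74 and 13.00 in chow TRAF2 KO and 13.01, 12.79 and 12.76 in chow control arrays. All TRAF3 KO arrays were below all other chow arrays. On HFD it was at 12.97, 13.02 and 12.59 in TRAF3 KO, 12.94, 12.88 and 12.89 in TRAF2 KO and 12.85, 12.87 and 12.50 in control arrays. The TRAF2 KO arrays lay just above all controls and the TRAF3 KO arrays overlapped both. Glp1r in TRAF3 KO differed from control on chow by -0.54 ± 0.15, or 1.45-fold lower (limma adjusted p = 0.0355), and it did not pass without chow TRAF3 KO 1 or 3 or without chow control 1 or 2.

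Gipr, the GIP receptor, was the most uneven of the 8 genes among chow controls. It was at 6.01, 6.59 and 5.76 in chow TRAF3 KO, 6.14, 6.62 and 7.19 in chow TRAF2 KO and 8.52, 7.00 and 6.66 in chow control arrays. Chow control 1, at 8.52, stood far above the other 17 arrays, and the TRAF3 KO arrays were below all controls, although the highest of them came within 0.1 of chow control 3. On HFD, Gipr was at 7.25, 7.23 and 6.39 in TRAF3 KO, 6.98, 6.88 and 6.54 in TRAF2 KO and 7.13, 6.97 and 6.14 in control arrays. The 3 HFD groups overlapped. On chow TRAF3 KO differed from control by -1.27 ± 0.42, with a 95% interval of -2.17 to -0.38, and did not pass (limma adjusted p = 0.064). Without chow control 1 it was -0.71. It passed with the acinar mean as a covariate (-1.47, adjusted p = 0.0143) and, at adjusted p of 0.0417 to 0.0494, with dim genes left out, after quantile normalization again or with the replicate number as a block.

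Slc30a8 and Ucn3 mark mature beta cells. Slc30a8 encodes ZnT8, the transporter that loads zinc into insulin granules, where insulin is stored as a zinc crystal. On chow it was at 9.80, 10.48 and 9.52 in TRAF3 KO, 10.29, 11.50 and 11.73 in TRAF2 KO and 12.29, 11.88 and 11.58 in control arrays. The TRAF3 KO arrays were all at least 1 log2 unit below the lowest control, and chow TRAF2 KO 1 again lay among them. HFD values were 11.86, 11.75 and 11.05 in TRAF3 KO, 11.83, 11.73 and 11.67 in TRAF2 KO and 11.95, 12.001 and 11.74 in control arrays, which overlapped. The chow TRAF3 KO difference from control was -1.98 ± 0.33, or 3.95-fold lower, with an adjusted p of 0.00233 by limma.

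Ucn3 encodes urocortin 3, a peptide released with insulin that drives somatostatin release from delta cells. It was at 9.11, 10.05 and 8.85 in chow TRAF3 KO, 9.77, 11.16 and 11.38 in chow TRAF2 KO and 11.87, 11.15 and 11.11 in chow control arrays. The pattern over arrays was that of Slc30a8. On HFD it was at 11.50, 11.44 and 10.71 in TRAF3 KO, 11.28, 11.34 and 11.27 in TRAF2 KO and 11.55, 11.58 and 11.31 in control arrays, and the TRAF3 KO arrays overlapped both other groups. On chow the TRAF3 KO difference from control was -2.04 ± 0.37, or 4.11-fold lower (limma adjusted p = 0.00376).

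Across the gene set, 5 of 8 genes passed as lower in chow TRAF3 KO islets, and none as higher. Among all 22180 genes 11% passed in this comparison, 4.69% as lower and 6.33% as higher. All 8 differences were negative with a median of -1.01, against a median of -0.01 over all genes. The TRAF3 KO and control ranges did not overlap for 7 of the 8 genes, all lower, and 15.1% of all genes had non-overlapping lower ranges. Slc2a2, Slc30a8 and Ucn3 passed in all 18 fits that left out 1 array, with adjusted p up to 0.022, 0.0179 and 0.0279, whereas the number of genes passing ranged from 3 to 6. With chow controls 1 and 3 left out together, which leaves 1 chow control array that is assumed to vary like the other groups, none of the 8 passed.

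**Figure D2:**
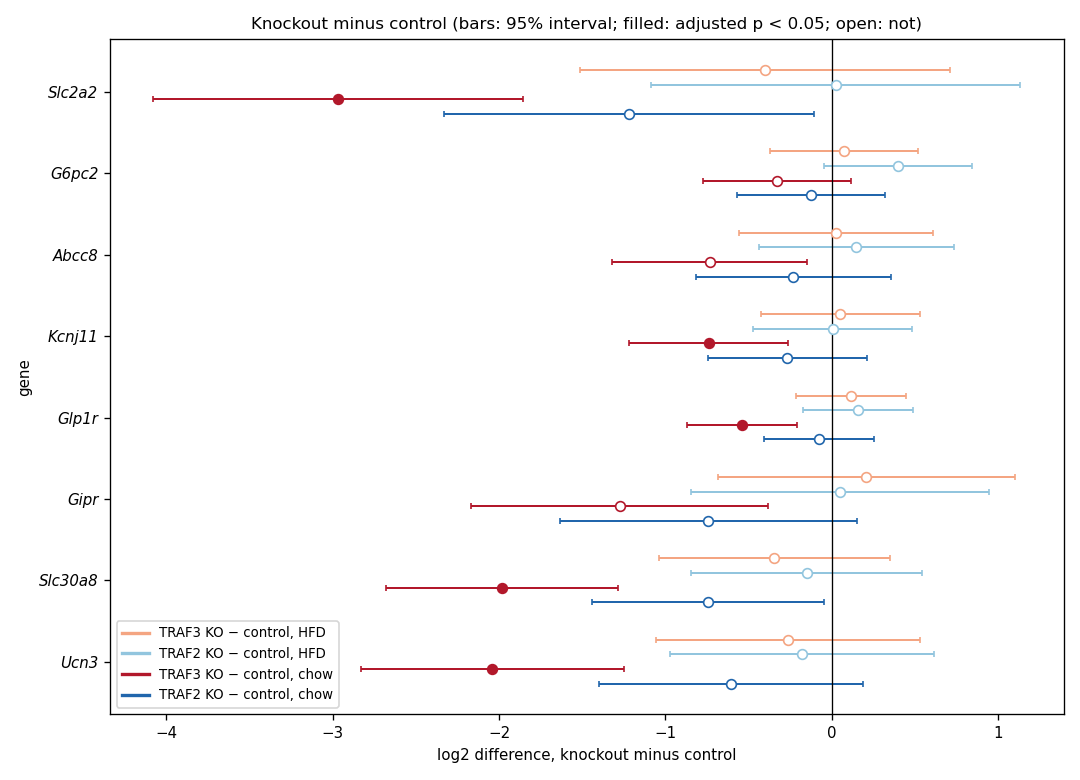
Log2 difference of each knockout from control on the same diet (horizontal axis) for the 8 genes, as limma estimates with 95% intervals. Filled dots passed at an adjusted p under 0.05: they are the chow TRAF3 KO differences of Slc2a2 (-2.97), Ucn3 (-2.04), Slc30a8 (-1.98), Kcnj11 (-0.74) and Glp1r (-0.54), and every other dot is open.

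Other beta cell transcripts moved with these genes in chow TRAF3 KO islets. Ins2 fell by 0.67 on the log2 scale (limma adjusted p = 0.0218) and Chga by 0.43 (adjusted p = 0.027), while Iapp differed by -0.13 (adjusted p = 0.473). Of 7 measured beta cell markers 5 fell, against 4.69% of all genes. The mean level of the 7 was 10.08 to 10.68 in chow TRAF3 KO and 11.07 to 11.36 in chow control arrays. In whole islets, fewer beta cells and less RNA per beta cell cannot be told apart.

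Markers of other cells differed as well. The mean of 4 alpha cell markers was 9.13 to 9.51 in chow TRAF3 KO and 9.63 to 10.28 in chow control arrays. All 4 differences were negative, and 1 of the 4 passed as lower, against 4.69% of all genes. The mean of 5 delta and PP cell markers overlapped, at 9.37 to 9.80 in chow TRAF3 KO and 9.71 to 10.11 in chow control arrays. All 5 differences were negative, and none passed by limma (2 had an unadjusted p under 0.05). By contrast, the mean of 10 myeloid markers was 7.19 to 7.39 in chow TRAF3 KO and 6.29 to 6.53 in chow control arrays. Of the 10, 3 passed as higher, among them Cd68 by 2.51, against 6.33% of all genes, and 2 had negative differences. Of 8 ductal markers, Anxa3 alone passed as higher, by 2.71, and 3 had negative differences. The mean of the 8 was 8.34 to 9.08 in chow TRAF3 KO arrays. In chow controls it was 7.14 in array 1 and 8.26 and 8.45 in the others, so the ranges overlapped. The duct channel gene Cftr was below the array median on 10 of 18 arrays. With the ductal mean as a covariate, Slc2a2 (-2.37, adjusted p = 0.0118), Slc30a8 (-1.58, adjusted p = 0.00732) and Ucn3 (-1.58, adjusted p = 0.0131) passed by limma and the other 5 genes did not. The part of myeloid cells in these differences was not tested.

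To set each gene against insulin message from the same array, Ins2 was subtracted, a step chosen after the values were seen. Relative to Ins2, Slc2a2 was lower by a difference of -2.30 in chow TRAF3 KO than in chow control islets, Ucn3 by -1.37 and Slc30a8 by -1.32, and in each of the 3 all knockout arrays were below all control arrays. An exact permutation test of 3 arrays against 3 gave p = 0.1 for each (two-sided), the smallest p that its 20 splits allow. The other ranges but that of G6pc2 overlapped, with differences of -0.07 for Abcc8, -0.07 for Kcnj11, 0.13 for Glp1r and -0.61 for Gipr. These rested in part on chow control 1: without it Abcc8 was at 0.22, Kcnj11 at 0.02, Glp1r at 0.23 and Gipr at -0.02, while Slc2a2 was at -1.98, Ucn3 at -1.11 and Slc30a8 at -1.11. G6pc2 relative to Ins2 was higher in all 3 TRAF3 KO arrays than in controls, by 0.34 (exact permutation p = 0.1). Ins2 itself differed by -0.67 there, and G6pc2 before the subtraction by -0.33. A gene equal in both groups would thus also come out higher relative to Ins2. Values near 0 mean a difference like that of Ins2, not an unchanged level. The share of all genes with non-overlapping ranges relative to Ins2 was not computed.

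On chow the TRAF2 KO was set against the same controls. None of the 8 genes passed against chow controls, in a comparison where 0.298% of all genes did. All 8 differences were negative, from -0.08 for Glp1r to -1.22 for Slc2a2 (95% interval -2.33 to -0.11, limma adjusted p = 0.729). These values depended on chow TRAF2 KO 1, whose mean for 9 lymphocyte markers was 7.79, the highest of the 18 arrays, and whose beta cell marker mean of 10.57 lay within the range of the TRAF3 KO arrays. Its means for myeloid markers (7.83) and for stellate cell, fibroblast and pericyte markers (7.71) were the highest of the chow arrays. HFD TRAF3 KO 2 had a similar lymphocyte mean of 7.72, with Slc2a2 at 11.32, Slc30a8 at 11.75 and Ucn3 at 11.44. Without chow TRAF2 KO 1 the Slc2a2 difference was -0.38, that of Slc30a8 was -0.30 against -0.74 with it, and that of Ucn3 was -0.11 against -0.61. The part of lymphocytes, myeloid cells or stellate cells in these values was not tested.

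Set directly against each other on chow, TRAF3 KO islets were lower than TRAF2 KO islets in mean for all 8 genes, and none passed (2.01% of all genes did). The differences were -1.75 ± 0.52 for Slc2a2 (limma adjusted p = 0.0934), -1.43 ± 0.37 for Ucn3 (adjusted p = 0.06) and -1.24 ± 0.33 for Slc30a8 (adjusted p = 0.0638). Without chow TRAF2 KO 1 these were -2.59, -1.93 and -1.68, and all 3 passed. Ucn3 and Slc30a8 also passed without chow TRAF3 KO 2 or without HFD TRAF3 KO 3, the second of which acts through the pooled spread alone.

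On HFD neither knockout differed from control in a way that passed. For TRAF3 KO none of the 8 genes passed, with 2.52% of all genes passing, and the differences lay between -0.40 for Slc2a2 (95% interval -1.51 to 0.71) and 0.21 for Gipr (95% interval -0.68 to 1.102). The intervals ran from -1.04 to 0.35 for Slc30a8 and from -1.05 to 0.53 for Ucn3. HFD TRAF3 KO 3 and HFD control 3 were each the lowest of their group in all 8 genes, and their acinar marker means of 12.77 and 12.80 were the highest of the 18 arrays. Their endothelial marker means of 7.51 and 7.77 were the lowest of the 18. Their myeloid and their stellate cell, fibroblast and pericyte means were the lowest of their groups, and their ductal means the highest. The part of any of these cells in the values was not tested. With the acinar mean as a covariate, the differences of G6pc2, Abcc8, Kcnj11, Glp1r and Gipr were negative, at -0.11, -0.33, -0.22, -0.06 and -0.22, and none passed.

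For TRAF2 KO on HFD, none passed either (0.252% of all genes did). Slc2a2 differed by 0.02, Kcnj11 by 0.01 and Gipr by 0.05. G6pc2 was higher in every TRAF2 KO array than in every HFD control, by 0.40 (95% interval -0.05 to 0.84, limma adjusted p = 0.931), and Glp1r likewise by 0.16 (95% interval -0.17 to 0.49, adjusted p = 0.977). Such higher, non-overlapping ranges were seen in 7.83% of all genes. The TRAF3 KO set against the TRAF2 KO on HFD also gave 0 of 8 genes, with 1.05% of all genes passing.

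Over both diets and both knockouts together, Slc30a8 was lower than in controls, by -0.81 ± 0.20 (limma adjusted p = 0.0418), and it was the 1 gene of 8 that passed, in a comparison where 2.8% of all genes did and 0.96% as lower. Slc2a2 differed by -1.14 (adjusted p = 0.0708) and Ucn3 by -0.77 (adjusted p = 0.0878). The Slc30a8 call was lost in 11 of the 18 fits that left out 1 array. The comparisons of the 2 knockouts with control use the same control arrays within a diet and are not independent.

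Diet was compared within each genotype. In TRAF3 KO mice 4 of 8 genes were higher on HFD than on chow, while 8.67% of all genes passed, 2.66% as higher. Slc2a2 was higher by 2.61 ± 0.52 (6.10-fold, limma adjusted p = 0.00719), Ucn3 by 1.88 ± 0.37 (3.69-fold, adjusted p = 0.0068), Slc30a8 by 1.62 ± 0.33 (3.07-fold, adjusted p = 0.00754) and Glp1r by 0.54 ± 0.15 (1.46-fold, adjusted p = 0.0396). For these 4 genes every HFD array was above every chow array, a pattern of 10.5% of all genes. The remaining 4 had positive differences that did not pass: 0.84 for Gipr, 0.60 for Abcc8, 0.41 for Kcnj11 and 0.37 for G6pc2. Leaving out 1 array gave 2 to 5 genes passing: the Glp1r call was lost in 9 of 18 such fits and that of Slc30a8 in 1, without chow TRAF3 KO 3, where its adjusted p was 0.0503. The same chow TRAF3 KO arrays also enter the chow comparisons with control and TRAF2 KO islets and the diet interaction below. These comparisons are therefore not independent.

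**Figure D3:**
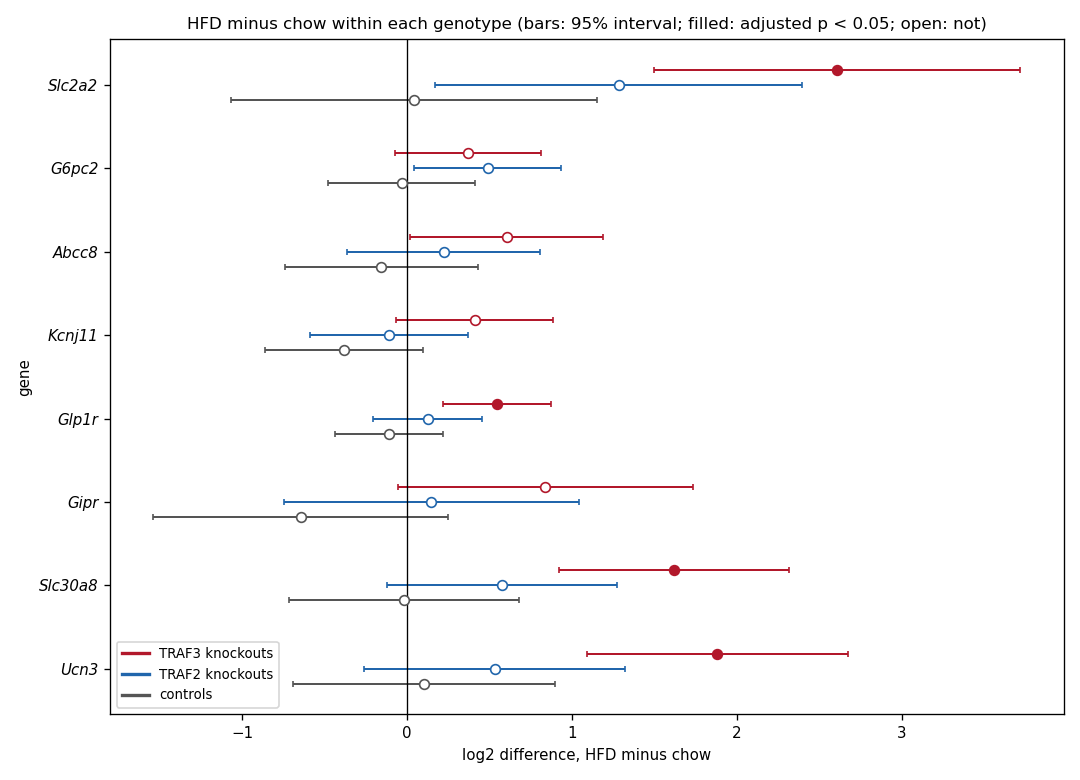
Log2 difference of HFD from chow islets (horizontal axis) within TRAF3 KO, TRAF2 KO and control mice for the 8 genes, as limma estimates with 95% intervals. The filled dots, which passed at an adjusted p under 0.05, belong to TRAF3 KO mice: Slc2a2 (2.61), Ucn3 (1.88), Slc30a8 (1.62) and Glp1r (0.54).

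Beta cell markers moved with this difference: 4 of 7 were higher on HFD, against 2.66% of all genes, with Ins2 higher by 0.57 (limma adjusted p = 0.0498). The mean of the 7 was 10.92 to 11.26 on HFD and 10.08 to 10.68 on chow. With the ductal mean as a covariate the Slc2a2 difference was 2.02, Ucn3 1.43 and Slc30a8 1.22, all still passing, and that of Glp1r was 0.34 (adjusted p = 0.126).

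In TRAF2 KO mice 0 of 8 genes passed between HFD and chow, where 1.96% of all genes did. The largest difference was 1.28 for Slc2a2 (95% interval 0.17 to 2.40, limma adjusted p = 0.258), and without chow TRAF2 KO 1 it was 0.45. In controls none passed either, where 0.884% of all genes did, and the differences lay between -0.65 for Gipr and 0.10 for Ucn3. Slc2a2 differed by 0.04 (95% interval -1.07 to 1.15) and Slc30a8 by -0.02 (95% interval -0.72 to 0.68) in controls. Sex moved with diet: from Xist and Y-linked transcripts, the chow groups held 1 female and 2 male arrays each, both HFD knockout groups held 2 female and 1 male, and the 3 HFD controls were female.

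The interaction term, the HFD difference of TRAF3 KO from control minus the chow difference, passed for Slc30a8 alone, at 1.64 ± 0.46 (limma adjusted p = 0.0493), while 5.8% of all genes passed, 2.52% as higher. All 8 interaction terms were positive. Those of Slc2a2 (2.57 ± 0.74, adjusted p = 0.0533), Ucn3 (1.78 ± 0.53, adjusted p = 0.059) and Glp1r (0.66 ± 0.22, adjusted p = 0.0902) did not pass. The Slc30a8 call was lost in 13 of the 18 fits that left out 1 array, and also with sex as a covariate (1.59, adjusted p = 0.0521). No gene had a TRAF2 knockout by diet interaction by limma, among the 8 or among all 22180, of which 628 had an unadjusted p under 0.05. For the 8 genes those terms lay between 0.24 and 1.24, the highest being that of Slc2a2, which was 0.40 without chow TRAF2 KO 1.

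The 8 genes also varied together within groups. Chow TRAF3 KO 3 was the lowest of the 18 arrays for all 8 genes. Chow control 1 was the highest for 6 of them, the exceptions being G6pc2, highest in HFD TRAF2 KO 1, and Glp1r, highest in HFD TRAF3 KO 2. The order of the 6 group means put chow TRAF3 KO last for every gene. Neighbouring groups in that order overlapped at every step but 1, the last step of Abcc8, in which chow TRAF3 KO lay below chow TRAF2 KO.

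**Figure D4:**
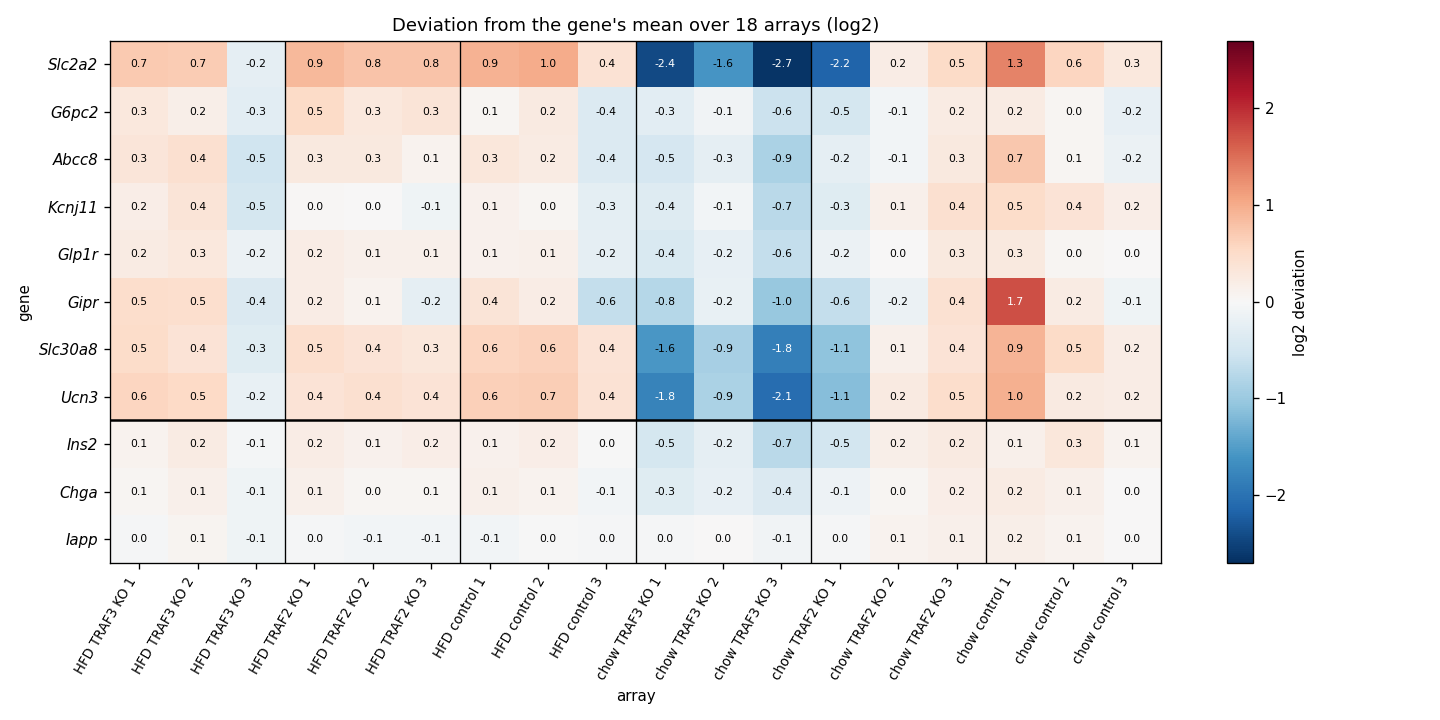
Deviation of each gene from its own mean over 18 arrays (colour and printed value, log2), with arrays in columns by group and the 8 genes above the line; Ins2, Chga and Iapp stand below it. Chow TRAF3 KO 3 is darkest, at -2.7 for Slc2a2, and chow TRAF2 KO 1 resembles the TRAF3 KO columns more than those of its own group.

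Genes were also ranked by how closely their values followed each of the 8 over the 18 arrays. Slc30a8 and Ucn3 were each other's closest match among all genes, with a Pearson correlation of 0.992, and Slc2a2 followed Slc30a8 at 0.989. With the group means taken out, these correlations were 0.984 and 0.974, and every pair of the 8 genes was at 0.7 or above. Within groups the spread of Slc2a2, Slc30a8, Ucn3 and G6pc2 was widest in chow TRAF2 KO, with SDs of 1.46, 0.775, 0.87 and 0.35. That of Gipr was widest in chow control, and those of Abcc8, Kcnj11 and Glp1r in HFD TRAF3 KO. Array 1 stood apart in chow TRAF2 KO, and the correlations were not computed without it. The other close matches of Slc2a2 were Ppp1r1a (0.99), which encodes a protein phosphatase inhibitor, and Hadh (0.988), which encodes a mitochondrial fatty acid enzyme whose loss causes excess insulin release in humans. Abcc8 was followed most closely by Syt13 (0.975), Nisch (0.97) and Btrc (0.966), and Kcnj11 by Mapre3 (0.966), Bcl9 (0.947) and Gnao1 (0.946). For Glp1r these were Unc80 (0.977), Vstm2l (0.974) and Cdh8 (0.973), for Gipr Kcnh6 (0.956), Scaf1 (0.94) and Ip6k2 (0.939), and for G6pc2 Asic1 (0.942), Ptprr (0.94) and Pdgfrl (0.933). Among the 8 genes the lists of closest matches shared names only within Slc2a2, Slc30a8 and Ucn3. These correlations describe 18 arrays that share groups and cell mixture, and carry no test.

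Genes that work with the 8 were examined in lists. The glucose list held 20 measured genes of glucose uptake, phosphorylation and early metabolism, of which 6 rose and 3 fell in chow TRAF3 KO against chow control islets. Among all genes 6.33% rose and 4.69% fell in this comparison. Slc2a1, which encodes the widespread transporter GLUT1, rose by 1.501 ± 0.39 (limma adjusted p = 0.0212), although a dimmer probe set of Slc2a1 differed by 0.32. Higher Slc2a1 means were not particular to chow TRAF3 KO islets. On chow they were 11.15 in TRAF3 KO, 11.08 in TRAF2 KO and 9.65 in control islets, whose lowest array was at 8.42. On HFD they were 10.16 in TRAF3 KO, 9.23 in TRAF2 KO and 8.65 in control islets. Pfkfb2, which sets the level of the phosphofructokinase activator fructose 2,6-bisphosphate, fell by 1.46 (adjusted p = 0.00237). Among phosphofructokinase genes Pfkp rose by 1.19 (adjusted p = 0.014) and Pfkm fell by 1.11 (adjusted p = 0.00994). Pfkp means on chow were 9.48 in TRAF3 KO, 9.35 in TRAF2 KO and 8.29 in control islets. The list's median difference was 0.08. On HFD against chow in TRAF3 KO mice, 1 gene of this list rose and 4 fell, against 2.66% of all genes higher and 6.01% lower.

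For ion channels, 1 of 6 measured KATP relatives and L-type calcium channel genes rose and 2 fell, against 6.33% of all genes higher and 4.69% lower. Kcnj8, which encodes the KATP pore Kir6.1 of vascular cells, rose by 1.42 (limma adjusted p = 0.0168). Its higher mean was not particular to chow TRAF3 KO islets. On chow Kcnj8 averaged 7.06 in TRAF3 KO, 7.01 in TRAF2 KO and 5.65 in control islets. On HFD it averaged 6.49 in TRAF3 KO, 6.56 in TRAF2 KO and 5.86 in control islets. The calcium channel subunit genes Cacna2d1 and Cacnb2 fell by 0.87 (adjusted p = 0.0378) and 0.70 (adjusted p = 0.0208), and a dim probe set of Cacnb2 differed by 0.12. The list's median was -0.63.

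Between incretin receptor and cAMP, 1 of 24 measured genes rose and 3 fell, against 6.33% of all genes higher and 4.69% lower. The list's median was -0.13. Dpp4, the protease that cuts GLP-1 and GIP, fell by 0.96 (limma adjusted p = 0.0193) and the adenylyl cyclase gene Adcy9 by 0.93 (adjusted p = 0.0207), while another, Adcy1, rose by 0.67 (adjusted p = 0.00425). Prkar1b, a regulatory subunit of protein kinase A, fell by 0.61 (adjusted p = 0.0451). Of 12 other class B peptide hormone receptors 1 rose, Calcrl, an endothelial receptor for adrenomedullin and CGRP, by 1.47 (adjusted p = 0.0305), and none fell, against 6.33% of all genes higher and 4.69% lower. None of 8 endothelial cell markers passed in this comparison by limma (3 had an unadjusted p under 0.05).

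Of 17 measured zinc transport and buffering genes other than Slc30a8, 2 rose and none fell, with a median of 0.24. Counts this small lie near the shares of all genes, 6.33% higher and 4.69% lower. The risers were the zinc importers Slc39a4, by 1.25 (limma adjusted p = 0.0395), and Slc39a1, by 1.04 (adjusted p = 0.00326). In the loop between urocortin 3 and somatostatin, 0 of 11 measured genes passed in either direction by limma (2 had an unadjusted p under 0.05), with a median of -0.17. The related peptides Ucn and Ucn2 differed by -0.20 (adjusted p = 0.591) and -0.03 (adjusted p = 0.941).

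The last list held transcription factors known to act on these genes. Of 13 measured, 6 fell and none rose in chow TRAF3 KO against chow control islets, with all 13 differences negative and a median of -0.75. Among all genes 4.69% fell there. This list shares Mafa, Nkx6-1 and Pdx1 with the beta cell markers above, so their counts overlap, here and between diets. Mafa, which binds the insulin promoter in mature beta cells, fell by 1.93 (limma adjusted p = 0.00307), Nkx6-1, a homeodomain factor of beta cell identity, by 1.47 (adjusted p = 0.00461), Pdx1, a homeodomain factor that acts on Slc2a2, by 1.41 (adjusted p = 0.00341) and Nkx2-2 by 0.94 (adjusted p = 0.0254). On HFD against chow in TRAF3 KO mice 5 of the 13 rose and none fell, while 2.66% of all genes rose. Mafa rose by 1.97 (adjusted p = 0.00295) and Pdx1 by 1.11 (adjusted p = 0.0141). Foxa2, named after its values were seen, was the 1 factor that also fell in TRAF3 KO on HFD, by 0.70 (adjusted p = 0.00649), and in TRAF2 KO on chow, by 0.68 (adjusted p = 0.0277).

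**Figure D5:**
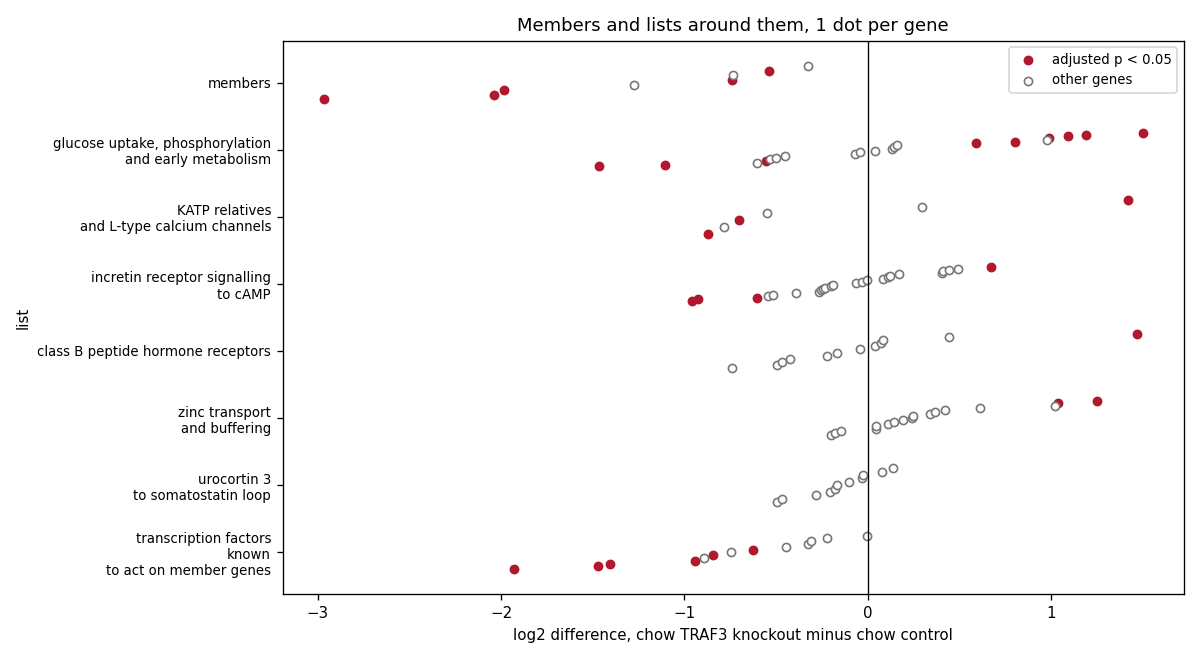
Log2 difference of chow TRAF3 KO from chow control islets (horizontal axis) for the 8 genes and for 7 lists of genes around them, with 1 dot per gene, filled where the adjusted p was under 0.05. The 8 genes and the transcription factors lie wholly left of 0, with medians of -1.01 and -0.75, while zinc transport and buffering genes have a median of 0.24.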

How the data were processed

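The authors deposited 1 log2 value per probe set and array, made with RMA (background correction, quantile normalization and summary) and limma per the submitters' processing notes. Versions, a genome build, and whether all 18 arrays were normalized together are not given in the sources used here. Labelled RNA came from 250 ng per sample, per the labels. Values were used as deposited, with no filter on level, and arrays give no read depth: their number limits the precision.

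Of 41345 probe sets, 23521 had 1 symbol in the platform annotation, 1814 carried several, and 16010 were without one there. Of 1082 genes with several probe sets the one with the highest mean was kept, which left 22180 genes. The TRAF3 transcript is not reported here, and Ins1 was not analysed here.

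All genes were fitted with limma 3.58.1 in R 4.3.3, as 6 group means with 12 residual and 3.69 prior degrees of freedom. The 12 contrasts were two-sided, Benjamini-Hochberg adjustment ran over all genes of a contrast, and 0.05 was the threshold for the adjusted p. On data simulated for the chow TRAF3 KO comparison over 22180 genes, 64% of 100 genes changed by 1 log2 unit and 95% of 100 changed by 2 were recovered, with 8 false calls. The simulated noise was drawn separately for each gene. In the real arrays genes varied together within groups, so these counts may not hold for them. The 8 genes, the lists and the markers were chosen with earlier results of these data known. Named were the 8 genes, the 3 best correlated named genes of each, and up to 4 passing genes with the largest chow TRAF3 KO changes per list, or its first 2 where none passed. Ins2, Traf2 and markers were named as background, Chga, Iapp and single markers after their values were seen. Alternatives changed the normalization, the filter, the moderation, the choice of probe set, the samples or the covariates, and left out each array in turn.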

Additional observations from a re-analysis of the deposited data

Results flagged for a closer look

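Slc30a8 was flagged because its TRAF3 KO by diet interaction passed in a direct test. The term was 1.64 on the log2 scale (limma adjusted p = 0.0493, n = 3 arrays in each of 4 groups). Among all genes 5.8% passed, 2.52% as higher. Slc2a2 (2.57, limma adjusted p = 0.0533) and Ucn3 (1.78, adjusted p = 0.059) had larger terms just short of the threshold. The pattern was therefore not particular to Slc30a8. Slc30a8 averaged 11.55 in HFD TRAF3 KO and 11.90 in HFD control islets, and 9.93 in chow TRAF3 KO and 11.92 in chow control islets. Leaving out 1 array gave 1.43 to 1.91, with limma adjusted p of 0.0105 to 0.138, and the call was lost in 13 of the 18 fits.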

How the results depend on the processing

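Each result was recomputed under 13 settings and with each of the 18 arrays left out. Genes passing in chow TRAF3 KO against control, 5 of 8 as reported, numbered 7 with the acinar covariate, 6 with dim genes left out, 4 with only the samples compared, 3 with every probe set tested or with the ductal mean as covariate, 0 with chow controls 1 and 3 out, and 3 to 6 with 1 array out: 3 without chow TRAF3 KO 1 or 3 or chow control 1 or 2, and 6 without HFD TRAF3 KO 3. For the TRAF3 by diet interaction, 1 as reported, the count was 3 after quantile normalization again, with dim genes left out (11090 kept), with only the samples compared, or without chow TRAF2 KO 1 and HFD TRAF3 KO 2. It was 0 with trend and robust moderation, with probe sets averaged, with every probe set, with sex, acinar or ductal covariates, or with chow controls 1 and 3 out, and 0 to 5 with 1 array out, the 5 without HFD TRAF3 KO 3. For both knockouts against control, 1 as reported, it was 3 with the acinar covariate, 2 with dim genes left out or without chow TRAF2 KO 1 and HFD TRAF3 KO 2, 0 with every probe set or with chow controls 1 and 3 out, and 0 to 2 with 1 array out. For TRAF3 against TRAF2 KO on chow, 0 as reported, it was 2 with dim genes left out, 3 without chow TRAF2 KO 1 and HFD TRAF3 KO 2, and 0 to 3 with 1 array out. HFD against chow in TRAF3 KO gave 3 or 4 under the 13 settings, and 2 to 5 with 1 array out, the 2 without chow TRAF3 KO 3. The other 7 comparisons gave 0 throughout. Apart from fewer genes or samples in a fit, the cause of these changes was not tested.

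Whether same-numbered arrays share a batch is not known. In deviations from group means, 45 same-numbered pairs from different groups correlated between -0.549 and 0.529, and 16 exceeded 0.1. Such deviations cancel within each group, so mixed signs arise in any case and cannot decide on a pairing. With the replicate number as a block, 6 of 8 genes passed in chow TRAF3 KO and 0 in the interaction (Slc30a8 1.64, adjusted p = 0.0505).

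Relative to Ins2 in chow TRAF3 KO, Abcc8 was 0.22 and Kcnj11 0.022 without chow control 1, which was left out there after seeing the data. Of the other differences that changed sign, none passed as reported or after the change. With the acinar covariate they were G6pc2 -0.11, Abcc8 -0.33, Kcnj11 -0.22, Glp1r -0.055 and Gipr -0.22 in HFD TRAF3 KO, and Slc2a2 -0.028, Kcnj11 -0.037 and Gipr -0.016 in HFD TRAF2 KO. With sex, Slc2a2 was -0.14 and Kcnj11 -0.035 in HFD TRAF2 KO. With arrays centred, Slc2a2 was -0.010 and Kcnj11 -0.028 there, and after quantile normalization again Kcnj11 was -0.044, Gipr -0.0080 and, in chow TRAF2 KO, Glp1r 0.015. With the ductal covariate, G6pc2 was 0.083 and Gipr 0.20 in TRAF3 against TRAF2 KO on chow. Without chow TRAF2 KO 1 and HFD TRAF3 KO 2, chow TRAF2 KO had G6pc2 at 0.061 and Glp1r at 0.017, and HFD TRAF3 KO had Abcc8 at -0.15 and Kcnj11 at -0.12. With 1 array out, differences in chow TRAF2 KO ranged from -0.29 to 0.061 for G6pc2, -0.41 to 0.033 for Abcc8 and -0.19 to 0.017 for Glp1r. Those in HFD TRAF2 KO ranged from -0.17 to 0.14 for Slc2a2, -0.067 to 0.28 for Abcc8, -0.11 to 0.084 for Kcnj11 and -0.25 to 0.24 for Gipr. In HFD TRAF3 KO they ranged from -0.095 to 0.25 for G6pc2, -0.19 to 0.33 for Abcc8, -0.12 to 0.30 for Kcnj11, -0.0043 to 0.25 for Glp1r and -0.094 to 0.49 for Gipr.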
